A study of Mus musculus with 4 samples.

Results

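The genes described here are 10 transcription factors tied to quiescence and the naive state of T cells: Bach2, Satb1, Tcf7, Lef1, Klf2, Klf3, Foxo1, Foxp1, Id3 and Sox4. They were taken by symbol, and all 10 were found among the 19044 genes of the count table. The libraries come from regulatory T (Treg) cells, a CD4 lineage that depends on Foxp3 and holds other immune cells in check, of mouse spleen and peripheral lymph nodes, given no treatment. The knockout carried a loxP-flanked Ripk1 gene (Ripk1fl/fl) together with Foxp3-YFP-Cre, a Cre recombinase fused to yellow fluorescent protein and driven by Foxp3. This design is meant to limit deletion to cells that express Foxp3, which these counts do not show. The wild type (WT) carried Foxp3-YFP-Cre alone, so both genotypes hold the Cre. RIPK1 is a kinase and scaffold downstream of death receptors. Each genotype gave 1 aTreg and 1 rTreg library, in this field the names of activated and resting Treg cells, with 17588754 to 20868319 counts per library. The sorting gates, the ages and number of the mice and whether libraries pool animals are not given in the sources. No group has a replicate, so intervals in brackets are 95% counting intervals and cover counting error only.

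Quiescent T cells are kept small, non-dividing and recirculating by an active gene program. FOXO1, held out of the nucleus when antigen receptor and growth factor signals activate the PI3K pathway, turns on homing and survival genes, and KLF2 drives exit from lymphoid tissue through S1pr1. TCF1 (the product of Tcf7) and LEF1 are related high-mobility-group factors of naive T cells, and BACH2 represses effector genes. Activation and effector differentiation are known to lower most of these factors.

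The RefSeq promoter table (build GRCm38.p6) had a window of 300 bases, 250 before and 50 after a transcription start, for every member, 20 windows in all because Lef1, Foxp1, Tcf7 and Satb1 have several starts. Stretches before the start, outside exons of coding genes, are shown for 4 members with unlike patterns over the libraries: Bach2 and Tcf7, lower with both labels, Sox4, with the steepest fall in aTreg, and Satb1, lower in aTreg and split between genotypes. Capitals mark matches to the motifs described after them, of which the Bach2 and Sox4 stretches hold none. The Bach2 and Tcf7 stretches lie inside these genes as bounded in the GENCODE M21 annotation. The Bach2 gene begins there at 32238804, far before its only window, so the sequence at that start was not searched.
Bach2, chr4:32417185-32417434, plus strand: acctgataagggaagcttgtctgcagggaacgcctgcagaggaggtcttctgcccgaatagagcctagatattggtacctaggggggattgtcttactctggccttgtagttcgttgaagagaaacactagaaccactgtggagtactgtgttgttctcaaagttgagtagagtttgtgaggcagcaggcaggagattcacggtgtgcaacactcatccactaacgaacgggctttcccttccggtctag
Tcf7, chr11:52282596-52282711, minus strand: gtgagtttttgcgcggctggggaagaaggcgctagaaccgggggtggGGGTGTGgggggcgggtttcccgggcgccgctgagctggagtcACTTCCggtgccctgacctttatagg
Sox4, chr13:28953714-28953949, minus strand: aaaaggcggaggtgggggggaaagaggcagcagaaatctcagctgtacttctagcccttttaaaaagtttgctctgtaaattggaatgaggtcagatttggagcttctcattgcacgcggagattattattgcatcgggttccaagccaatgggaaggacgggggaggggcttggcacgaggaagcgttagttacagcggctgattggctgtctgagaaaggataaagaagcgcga
Satb1, chr17:51833291-51833540, minus strand: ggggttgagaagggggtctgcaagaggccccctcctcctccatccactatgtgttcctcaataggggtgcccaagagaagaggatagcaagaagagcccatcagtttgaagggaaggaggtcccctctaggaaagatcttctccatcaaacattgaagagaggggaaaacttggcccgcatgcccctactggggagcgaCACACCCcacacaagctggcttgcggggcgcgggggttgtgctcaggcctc

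The KLF motif CACACCC, searched on both strands as all motifs here, lies in the Satb1 stretch above, as GGGTGTG in the Tcf7 stretch, and in a window of Id3. It was in 3 of the 20 member windows and in 7.95% of all 32851 windows. The ETS motif GGAAGT was in 6 of the 20 member windows, those of 3 members (Lef1, Satb1 and Tcf7), and in 23.8% of all windows. The forkhead motif GTAAACA was found at Tcf7 and the TCF and LEF motif CTTTGAA at Foxp1, each in 1 of the 20 member windows, against 3.65% and 5.14% of all windows. Neither the TCF and LEF motif CTTTGAT nor the BACH and AP-1 motif TGANTCA was in a member's window (3.73% and 7.81% of all windows). Median GC content was 60.2% over the 20 windows and 52.7% over all windows. These matches are letters in short windows, and members with several windows had more chances to hold one.

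The libraries and their labels were checked first. Ripk1 had 80.8 CPM (the count scaled to a common library size) in KO-labelled aTreg and 84.7 CPM in KO-labelled rTreg, against 77.5 CPM in WT aTreg and 83.6 CPM in WT rTreg (log2 change 0.04, edgeR adjusted p = 0.658). A count over the whole gene checks the removal of some exons only weakly, and the counts show no fall, so the libraries are called KO-labelled throughout. Foxp3 was at 658 and 619 CPM in KO-labelled aTreg and rTreg and at 694 and 688 CPM in WT aTreg and rTreg. Of the 9 Treg and T cell markers in the table, Il2ra and Tnfrsf18 were called higher and Cd3d lower in the KO-labelled libraries. Xist, the X-inactivation RNA of female cells, had 0.213 and 0.284 CPM in KO-labelled aTreg and rTreg, against 338 and 299 CPM in WT aTreg and rTreg. The Y-linked Ddx3y was present in every library (112 and 126 CPM in KO-labelled aTreg and rTreg, 97.5 and 121 CPM in WT aTreg and rTreg), so the sex makeup of the libraries differs with genotype and the effects of the 2 cannot be told apart. Of 10 B cell markers 3 reached the level minimum used below, and 2 of these were called higher with the KO label. Igkc, an antibody light chain gene, had 16.0 and 20.7 CPM in KO-labelled aTreg and rTreg, against 1.51 and 1.0 CPM in WT aTreg and rTreg (log2 change 3.86, edgeR adjusted p = 2.08e-07), and Ighm, an antibody heavy chain gene, had a log2 change of 0.67 (edgeR adjusted p = 0.00148). The sum of all 10, nearly all Ighm, was at 728, 771, 605 and 359 CPM in KO-labelled aTreg, KO-labelled rTreg, WT aTreg and WT rTreg, while Ms4a1, Pax5 and Ebf1 stayed at or under 0.533 CPM. Summed erythroid and platelet markers were at 14.8 and 12.6 CPM in KO-labelled aTreg and rTreg, against 1.89 and 0.858 CPM in WT aTreg and rTreg. Summed natural killer markers were at 8.90 and 7.78 CPM in KO-labelled aTreg and rTreg, against 3.30 and 2.29 CPM in WT aTreg and rTreg. Among them Eomes and Klrc1 were higher and Klrb1c lower with the KO label in each state. Summed CD8 markers lay between 7.82 and 12.9 CPM and myeloid markers between 62.4 and 71.3 CPM, mostly Cst3 (48.0 to 50.7 CPM). Of the weaker myeloid markers, Itgam, Itgax, S100a8 and S100a9 were higher and Csf1r lower in both KO-labelled libraries than in both WT libraries. The part of these in the results was not tested.

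The test was edgeR's quasi-likelihood fit with additive genotype and state terms over the 4 libraries, run on every gene whose mean reached 5 CPM. This leaves 1 residual degree of freedom, which measures how far the genotype change differs between the states and not a spread between replicates. The error of a gene is drawn strongly toward that of other genes. A gene is said to rise or fall only where its Benjamini-Hochberg adjusted p over all 9680 tested genes was under 0.05. All 10 members passed the level minimum.

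With the KO label 8 of the 10 members fell and none rose. Of all tested genes 47.2% changed with genotype, 22.8% falling and 24.4% rising. The members' median log2 change was -0.45, against 0.00206 over all tested genes. In aTreg 9 of 10 fell and none rose, where 13.4% of all tested genes changed with state, 5.44% falling and 7.91% rising, with a median of -0.39 over the members and 0.000738 over all. With state as the sole term and both genotypes as replicates, edgeR called 0 of the members and 0 of all tested genes, against 3 members and 328 genes at an unadjusted p under 0.05. No member was higher at an unadjusted p under 0.05 in either term, and DESeq2 called none higher. Bach2, Tcf7, Klf2, Klf3, Foxo1, Foxp1 and Sox4, 7 members, fell with both labels, as 1.91% of all tested genes did. Satb1 and Lef1 passed for state and not for genotype, and Id3 passed for genotype and not for state. Together the members took 1898 CPM in KO-labelled aTreg, 2492 CPM in KO-labelled rTreg, 2351 CPM in WT aTreg and 3229 CPM in WT rTreg. The sum in KO-labelled relative to WT libraries differed by -19.3% in aTreg and by -22.8% in rTreg, and that in aTreg relative to rTreg by -23.9% with the KO label and by -27.2% in WT. In bulk RNA, fewer cells that express a gene and less RNA per cell cannot be told apart.

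**Figure D1:**
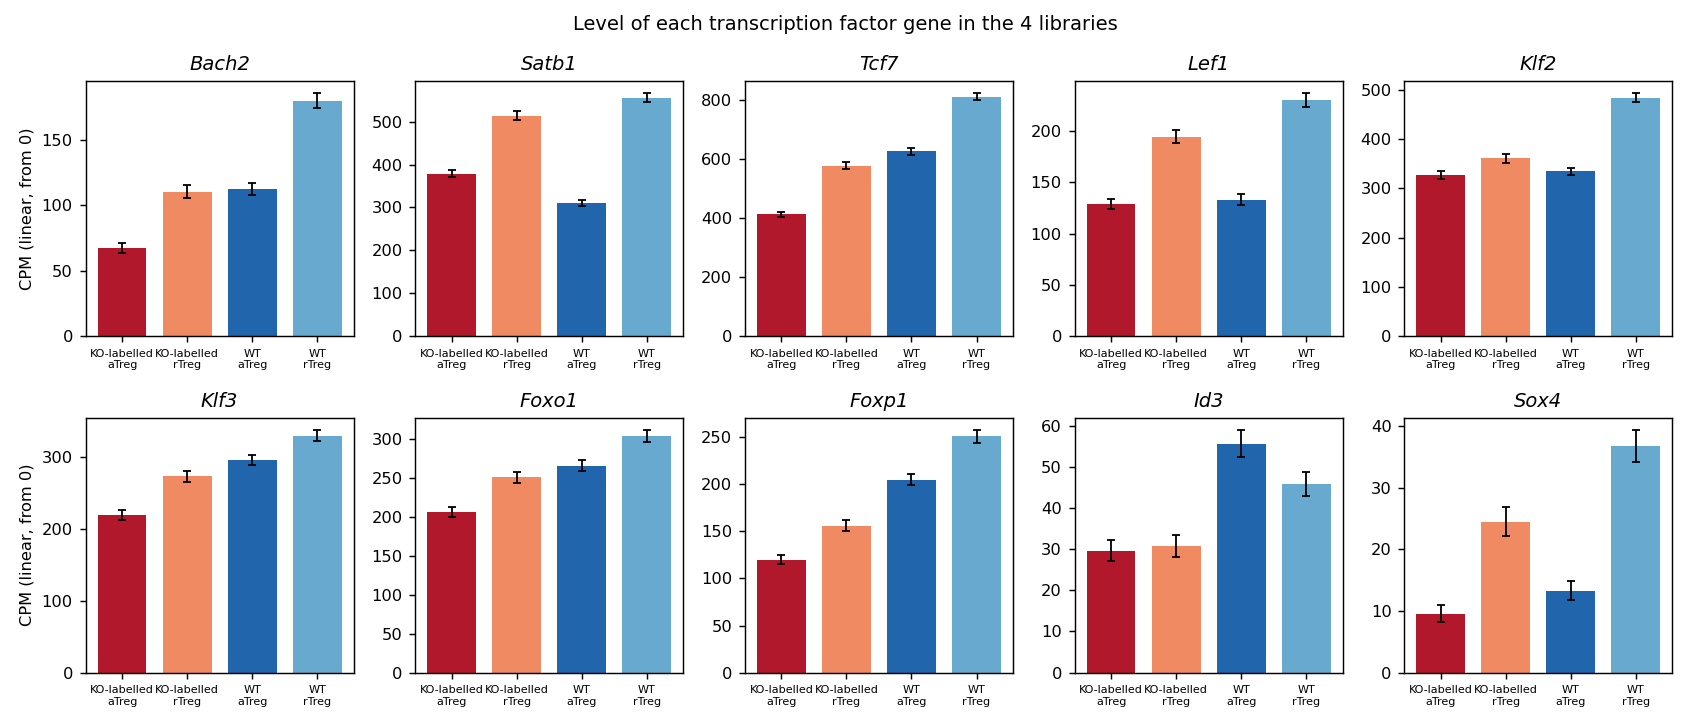
Level of the 10 genes in CPM, on linear axes from 0, with 1 bar per library (KO-labelled aTreg, KO-labelled rTreg, WT aTreg, WT rTreg) and exact Poisson 95% intervals of the count. In 8 of the 10 panels WT rTreg is highest and KO-labelled aTreg lowest, Satb1 being lowest in WT aTreg and Id3 highest there.

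The 8 members with WT rTreg highest and KO-labelled aTreg lowest compare with 14.9% of all tested genes, and the exceptions were Satb1 and Id3. Both KO-labelled libraries lay below both WT libraries for 6 members (31.9% of all tested genes), and both aTreg libraries below both rTreg libraries for 4 members (12.9%). Expressed per kilobase of exon (union of GENCODE M21 exons, the annotation used for counting being not given), the most abundant members were Tcf7, at a mean of 231 CPM per kilobase over the 4 libraries, and Klf2, at 204. Foxo1 (29.6), Klf3 (24.9), Satb1 (23.1), Id3 (22.6), Lef1 (19.5), Foxp1 (13.3) and Bach2 (11.8) followed, and Sox4 was lowest at 4.38 CPM per kilobase. On this scale Tcf7 and Klf2 stood well above the other members.

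Bach2 (GRCm38 chromosome 4, 32238804 to 32586108, plus strand) encodes a repressor of effector genes that is needed for Treg cells to form and persist. Its level was 67.6 CPM in KO-labelled aTreg and 110.5 CPM in KO-labelled rTreg, against 113 CPM in WT aTreg and 180.2 CPM in WT rTreg. KO-labelled rTreg and WT aTreg were thus nearly level, with KO-labelled aTreg far below them and WT rTreg far above. It fell by 0.72 log2 units with the KO label (SE 0.0654, edgeR adjusted p = 2.59e-06) and by 0.69 log2 units in aTreg (SE 0.0654, edgeR adjusted p = 2.66e-05). The genotype log2 ratio was -0.74 [-0.84 to -0.64] in aTreg and -0.71 [-0.79 to -0.63] in rTreg, a difference between states of -0.03 whose counting interval (-0.16 to 0.09) includes 0. Of its exon bases 5.4% overlap the antisense gene Bach2os, which had 10 and 23 counts in KO-labelled aTreg and rTreg and 41 and 65 counts in WT aTreg and rTreg, few beside the 1268 to 3782 counts of Bach2.

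Tcf7 (chromosome 11, 52252371 to 52283014, minus strand) encodes TCF1, which acts with beta-catenin and with repressors to hold T cells in a naive or memory-like state. It had 412 CPM in KO-labelled aTreg and 577 CPM in KO-labelled rTreg, against 625 CPM in WT aTreg and 810.5 CPM in WT rTreg. Both KO-labelled libraries lay below both WT libraries. The fall was 0.55 log2 units with the KO label (SE 0.0694, edgeR adjusted p = 3.92e-05) and 0.43 log2 units in aTreg (SE 0.0694, edgeR adjusted p = 0.00122). Its relative Lef1 (chromosome 3, 131110471 to 131224356, plus strand) shares the fall in aTreg and did not pass for genotype. Lef1 had 129 CPM in KO-labelled aTreg and 195 CPM in KO-labelled rTreg, against 133 CPM in WT aTreg and 231 CPM in WT rTreg, so the aTreg libraries of both genotypes stood close together below both rTreg libraries. Lef1 fell by 0.70 log2 units in aTreg (SE 0.0707, edgeR adjusted p = 4.53e-05), and its change with the KO label was -0.15 log2 units (SE 0.0705, edgeR adjusted p = 0.0987). With upper-quartile scaling Lef1 did pass for genotype, at -0.20 log2 units (edgeR adjusted p = 0.0350). Of its exon bases 13.7% overlap an antisense gene, Gm43352, and whether counting used the strand is not given.

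Foxo1 (chromosome 3, 52268336 to 52353221, plus strand) and Foxp1 (chromosome 6, 98925338 to 99522721, minus strand) are forkhead factors, FOXO1 a driver of the homing program and FOXP1 a keeper of naive T cell quiescence. Foxp1 had 120.1 CPM in KO-labelled aTreg and 156 CPM in KO-labelled rTreg, against 205 CPM in WT aTreg and 251 CPM in WT rTreg. Its fall with the KO label, 0.73 log2 units (SE 0.0664, edgeR adjusted p = 2.68e-06), held at -0.77 [-0.85 to -0.70] in aTreg and -0.69 [-0.76 to -0.62] in rTreg. In aTreg Foxp1 fell by 0.33 log2 units (SE 0.0661, edgeR adjusted p = 0.00492). Foxo1 had 206 CPM in KO-labelled aTreg and 250.3 CPM in KO-labelled rTreg, against 265 CPM in WT aTreg and 304 CPM in WT rTreg. These are small steps that nonetheless keep every WT library above every KO-labelled library. Foxo1 fell by 0.32 log2 units with the KO label (SE 0.067, edgeR adjusted p = 0.00163) and by 0.24 log2 units in aTreg (SE 0.0669, edgeR adjusted p = 0.0334). Noncoding genes on the opposite strand cover 7.78% of the exon bases of Foxo1 and 3.59% of those of Klf3, described next.

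The Krüppel-like factors Klf2 (chromosome 8, 72319033 to 72321656, plus strand), an activator of S1pr1, and Klf3 (chromosome 5, 64803388 to 64832901, plus strand), mostly a repressor, moved in the same direction with different shapes. Klf2 had 326 CPM in KO-labelled aTreg and 361 CPM in KO-labelled rTreg, against 334 CPM in WT aTreg and 484 CPM in WT rTreg. WT rTreg thus stood apart from the other 3 libraries. Klf2 fell by 0.23 log2 units with the KO label (SE 0.0863, edgeR adjusted p = 0.0432), yet the ratio was -0.04 [-0.09 to 0.01] in aTreg and -0.42 [-0.47 to -0.38] in rTreg, so the call rests on the rTreg pair. In aTreg it fell by 0.34 log2 units (SE 0.0864, edgeR adjusted p = 0.0195), with ratios of -0.15 [-0.20 to -0.10] between the KO-labelled libraries and -0.53 [-0.58 to -0.49] between the WT libraries. Klf3 had 219 CPM in KO-labelled aTreg and 273 CPM in KO-labelled rTreg, against 296 CPM in WT aTreg and 329.7 CPM in WT rTreg. It was ordered like Foxo1, with both WT libraries on top. Its falls were 0.35 log2 units with the KO label (SE 0.0697, edgeR adjusted p = 0.00117) and 0.23 log2 units in aTreg (SE 0.0697, edgeR adjusted p = 0.0418).

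**Figure D2:**
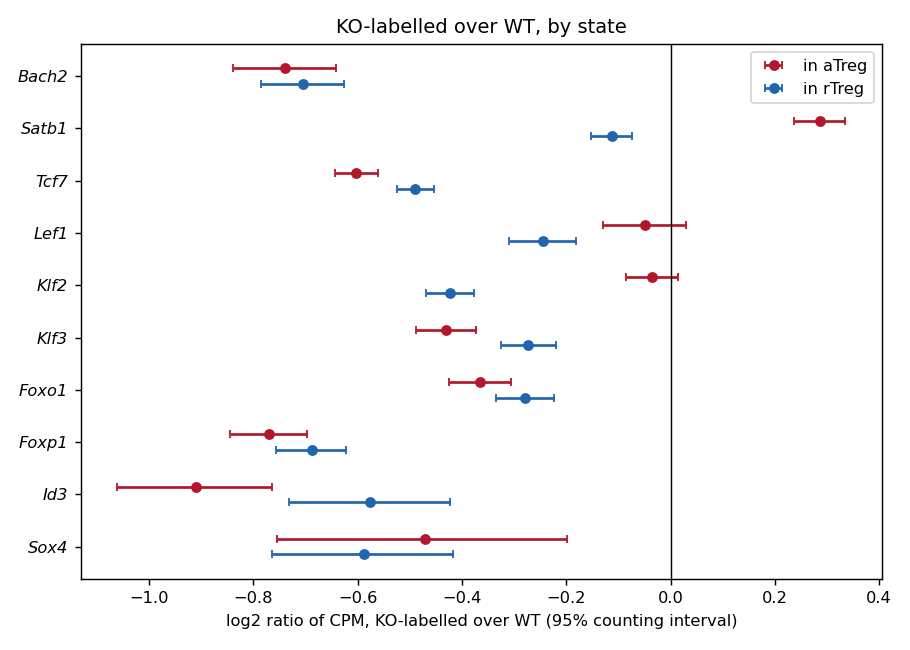
Log2 ratio of CPM, KO-labelled over WT, for each gene in aTreg (upper point) and rTreg (lower point), with 95% counting intervals from 1 library per group. Of the 10 genes 9 lie left of 0 in both states, and Satb1 lies right of 0 in aTreg (0.29) and left in rTreg (-0.11).

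Satb1 (chromosome 17, 51736187 to 51833290, minus strand), an organiser of chromatin needed for Treg development in the thymus and held low in mature Treg cells, had 379 CPM in KO-labelled aTreg and 515 CPM in KO-labelled rTreg, against 311 CPM in WT aTreg and 557 CPM in WT rTreg. The KO-labelled pair lay inside the range of the WT pair. Satb1 fell by 0.64 log2 units in aTreg (SE 0.0878, edgeR adjusted p = 0.000379) and did not pass for genotype (0.09 log2 units, SE 0.0875, edgeR adjusted p = 0.447). Its genotype ratio had opposite signs in the states, 0.29 [0.24 to 0.34] in aTreg and -0.11 [-0.15 to -0.07] in rTreg. The state ratio was correspondingly smaller between the KO-labelled libraries (-0.44 [-0.49 to -0.40]) than between the WT libraries (-0.84 [-0.89 to -0.80]).

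Id3 (chromosome 4, 136143497 to 136145755, plus strand) encodes a partner of E proteins that itself lacks a DNA-binding region and so restrains their activity. It had 29.6 CPM in KO-labelled aTreg and 30.7 CPM in KO-labelled rTreg, against 55.7 CPM in WT aTreg and 45.7 CPM in WT rTreg, so the groups of the 2 genotypes did not overlap. Its fall with the KO label was 0.75 log2 units (SE 0.103, edgeR adjusted p = 7.43e-05), the largest among the members, with -0.91 [-1.06 to -0.76] in aTreg and -0.58 [-0.73 to -0.42] in rTreg. For state it did not pass (0.13 log2 units, SE 0.102, edgeR adjusted p = 0.477), and the ratio was -0.05 [-0.23 to 0.12] between the KO-labelled libraries and 0.28 [0.16 to 0.41] between the WT libraries.

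Sox4 (chromosome 13, 28948919 to 28953713, minus strand), a high-mobility-group factor of developing lymphocytes, had the lowest level and, as the fold between its highest and lowest library, the widest range of the members. Its CPM was 9.54 in KO-labelled aTreg and 24.4 in KO-labelled rTreg, against 13.3 in WT aTreg and 36.7 in WT rTreg, from 179, 430, 273 and 771 counts. Both aTreg libraries lay below both rTreg libraries. It fell by 1.42 log2 units in aTreg (SE 0.127, edgeR adjusted p = 1.71e-05) and by 0.54 log2 units with the KO label (SE 0.126, edgeR adjusted p = 0.00346). A long noncoding gene on the opposite strand, Gm26735, covers 54.6% of its exon bases. Gm26735 has no row of its own in the table, so its reads could be among these counts.

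**Figure D3:**
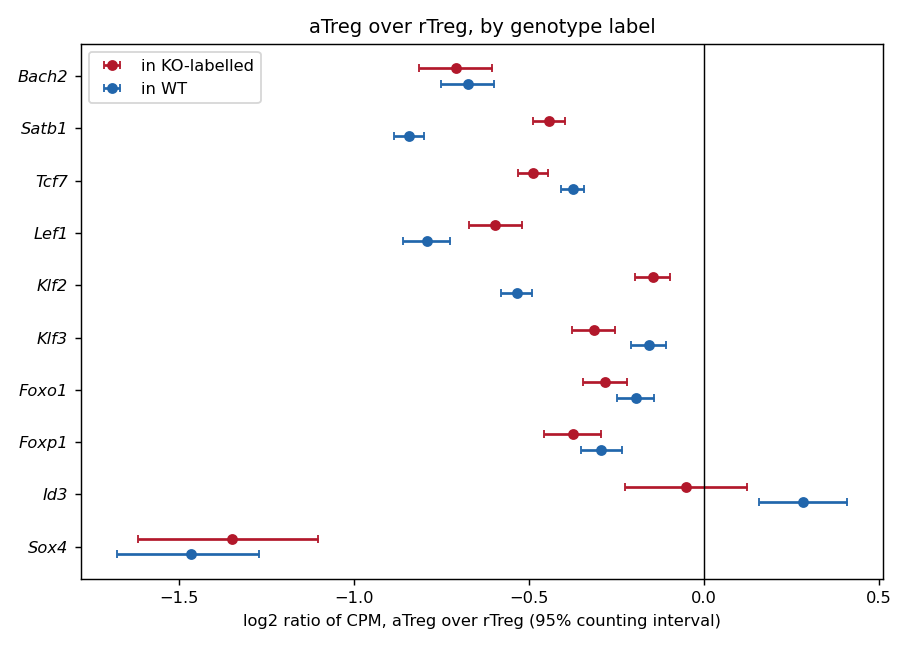
Log2 ratio of CPM, aTreg over rTreg, for each gene between the KO-labelled libraries (upper point) and between the WT libraries (lower point), with 95% counting intervals from 1 library per group. Of the 10 genes 9 lie left of 0 in both genotypes, Sox4 farthest, and Id3 lies right of 0 in WT (0.28).

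Counted by size within a state, 4 members (Bach2, Tcf7, Foxp1 and Id3) were at least 1.5-fold lower in KO-labelled than in WT aTreg, where 7.98% of all tested genes were, and 3 (Bach2, Foxp1 and Sox4) in rTreg, where 5.92% were. In aTreg against rTreg 3 members (Bach2, Lef1 and Sox4) were at least 1.5-fold lower between the KO-labelled libraries (1.48% of all tested genes) and 4 (Bach2, Satb1, Lef1 and Sox4) between the WT libraries (3%). No member was at least 1.5-fold higher in any of these contrasts, where 9.77% and 8.74% of all tested genes were with the KO label in aTreg and rTreg, and 3.06% and 4.49% in aTreg of the KO-labelled and WT pairs. The genotype ratio was closer to 0 or higher in aTreg, by more than its counting interval, for Satb1 (by 0.40 log2 units), Klf2 (by 0.39) and Lef1 (by 0.20). It was lower in aTreg, again by more than its counting interval, for Id3 (difference -0.33), Klf3 (-0.16), Tcf7 (-0.11) and Foxo1 (-0.09). These intervals hold counting error alone, so at high counts even small differences exceed them. How many of all tested genes differ in this way was not computed. With 1 library per group no test of the difference can be made. The contrasts share libraries, so their values are not independent of each other.

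**Figure D4:**
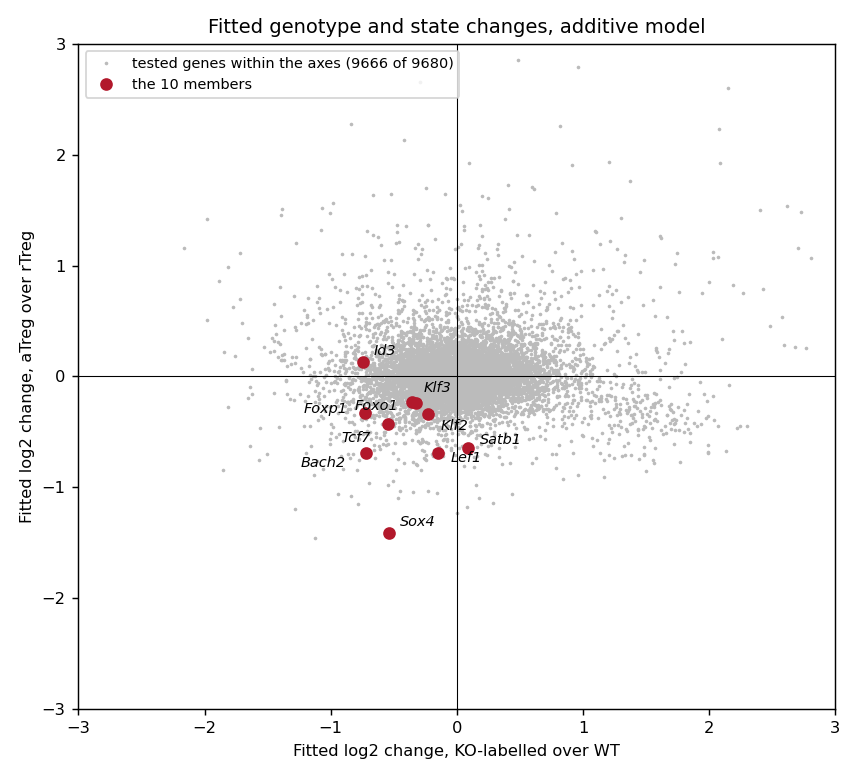
Fitted log2 change for genotype (KO-labelled over WT, horizontal) and state (aTreg over rTreg, vertical) from the additive model, for tested genes within 3 log2 units (9666 of 9680, grey) and the 10 members (red). Most members lie in the lower left, Satb1 and Lef1 near the vertical line and Id3 near the horizontal line.

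With both states of a genotype treated as replicates, so that state enters the error, edgeR called 2 members lower in the KO-labelled libraries, Foxp1 (adjusted p = 0.0433) and Id3 (adjusted p = 0.0257). Of the 9680 tested genes, 697 were called lower in this form. The authors' deposited table, which gives WT over knockout, has Foxp1 at a log2 fold change of 0.72 (adjusted p = 0.00111), Id3 at 0.75 (adjusted p = 0.000657) and Tcf7 at 0.53 (adjusted p = 0.0455). The other 7 have adjusted p between 0.126 and 0.972 in the authors' deposited table, Bach2 among them at 0.361 despite a log2 fold change of 0.72. Run on these counts with genotype alone and no level minimum, DESeq2 called 868 genes lower in the KO-labelled libraries.

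Known targets in the FOXO1 and KLF2 homing and survival program were set beside the members. Of 17 such genes other than the members, 11 fell with the KO label and 1 (Itgb7) rose, with a median of -0.30, and 8 fell and none rose in aTreg, with a median of -0.20. Over all tested genes 22.8% fell with the KO label and 5.44% in aTreg. In the KO-labelled libraries Sesn1, a stress-inducible brake on mTORC1 signalling, fell by 1.10 log2 units, Il6ra, an interleukin-6 receptor chain, by 0.90, the PI3K inhibitor gene Pik3ip1 by 0.75 and the survival gene Bcl2 by 0.64. In aTreg the chemokine receptor gene Ccr7 fell by 0.72 log2 units, Txnip by 0.69 and S1pr1, the lymphoid exit receptor, by 0.62. S1pr1 did not pass for genotype, with a log2 change of -0.01 (edgeR adjusted p = 0.913), nor did its relative S1pr4, with 0.21 (edgeR adjusted p = 0.0953). With the KO label Ccr7 fell by only 0.19 log2 units and Itgb7 rose by 0.39, so the larger falls named were not in these trafficking genes.

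Other genes of quiescence, Pik3ip1, Txnip and Cdkn1b again among them, mostly fell with the KO label and split with state. Of 32 tested, 20 fell with the KO label and 3 rose (median -0.36), and 6 fell and 7 rose in aTreg (median 0.06). Btg2, an antiproliferative gene, fell by 1.37 log2 units with the KO label, Zfp36l2, which promotes decay of messenger RNA, by 1.05 and Btg1 by 0.87, while Cdkn2c rose by 1.02. In aTreg Myb fell by 0.70 log2 units and Txnip by 0.69, whereas Zfp36 rose by 0.68 and Gfi1 by 0.46. Of 15 tested family relatives, 10 fell and 3 rose with the KO label (median -0.31), and 1 fell and 3 rose in aTreg (median 0.07). Klf12 rose by 1.61 log2 units with the KO label and by 1.27 in aTreg (1.67 to 12.2 CPM over the libraries), and Tcf7l1 rose by 1.06 with the KO label. Klf4 fell by 1.01 and Klf9 by 0.92 with the KO label. In aTreg Klf4 rose by 0.48 log2 units and Klf7 fell by 0.43. Id2, the relative of Id3 that is known to rise in effector cells, rose by 0.42 log2 units with the KO label and by 0.75 in aTreg. The other 12 relatives in the table were under the level minimum, and Foxp2 was not analysed here.

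**Figure D5:**
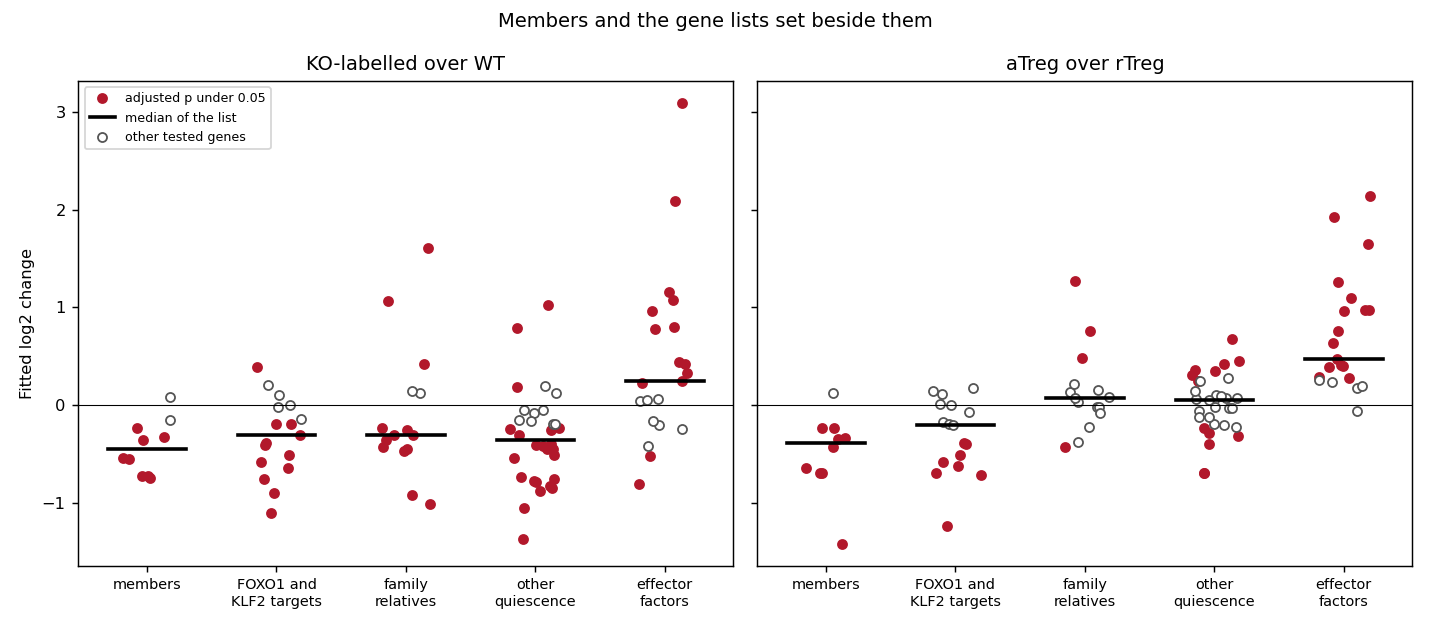
Fitted log2 change of each tested gene in 5 lists, for KO-labelled over WT (left) and aTreg over rTreg (right), filled where the adjusted p was under 0.05, with the median of each list as a bar. The members and the FOXO1 and KLF2 targets lie mostly below 0 in both panels, and the effector factors mostly above 0.

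Transcription factors of effector differentiation, which oppose the naive state, went the other way. Of 21 tested, 12 rose with the KO label and 2 fell (median 0.24), and 16 rose and none fell in aTreg (median 0.47). With the KO label Tbx21, which encodes T-bet, rose by 3.09 log2 units, Epas1 by 2.09, Prdm1, which encodes BLIMP-1 and is repressed by BACH2, by 1.16 and Bhlhe40 by 1.08. In aTreg Hic1 rose by 2.14 log2 units, Epas1 by 1.93 and Tbx21 by 1.26. Prdm1 had 68.4 CPM in KO-labelled aTreg and 44.0 CPM in KO-labelled rTreg, against 38.7 CPM in WT aTreg and 14.9 CPM in WT rTreg, the reverse of the order of the libraries for Bach2. This is not particular to the pair. Tcf7, Klf3, Foxo1 and Foxp1 had the same order as Bach2, and Tbx21, Epas1 and Bhlhe40, among others, the same order as Prdm1. A link between Bach2 and Prdm1 was not tested. Cell cycle genes moved with the genotype label as well: all 29 tested rose in the KO-labelled libraries (median 1.57), E2f8, Birc5, Ccnb2 and Cdc6 by 2.30, 2.13, 2.07 and 2.04 log2 units, and 6 fell and none rose in aTreg (median -0.38), Ccna2, Birc5, Top2a and Cdc45 by 0.77, 0.67, 0.64 and 0.51. Their sum was 3630 and 3869 CPM in KO-labelled aTreg and rTreg, against 1271 and 1691 CPM in WT aTreg and rTreg, and its part in the fall of the members was not tested.

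Likeness was measured as the distance between log2 CPM centred per gene over the 4 libraries, among the 7091 genes averaging 20 CPM or more. The nearest gene was S1pr1 for Satb1 (distance 0.10 log2 units), Ccr7 for Lef1 (0.0546), Ifngr2 for Tcf7 (0.0538), Mtss1 for Bach2 (0.10) and Frmd6 for Foxp1 (0.00749). It was Kat8 for Klf3 (0.012), Ttc38 for Foxo1 (0.0188), Xrcc3 for Klf2 (0.0555), Qtrt2 for Id3 (0.0547) and Ly6c1 for Sox4 (0.41). Nearest to the median profile of the 10 members were 1600020E01Rik, Tmem64, Herc6, Mapk8, Rbm4b and Fnip1, at 0.0403 to 0.101 log2 units. The nearest gene to Sox4 was farther off than that of any other member.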

How the data were processed

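Messenger RNA was measured in 4 mouse Treg libraries, 1 each of KO-labelled aTreg, KO-labelled rTreg, WT aTreg and WT rTreg. The labels' protocols name TRIzol extraction and SMARTer mRNA library preparation. The submitters' processing notes name HISAT2 2.2.1, featureCounts 2.0.1 and the build GRCm38, while the annotation and strand setting are not given in the sources. The deposited table holds whole read counts, not normalized. A further deposited table holds the authors' variance-stabilised values on a log2 scale, log2 fold changes of WT over knockout, a mean signal of size-factor-scaled counts, a test score, and p-values, per the file headers.

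Counts were scaled with TMM (factors 0.995 to 1.006) in edgeR 4.0.16 (R 4.3.3), and log2 CPM used a prior count of 2. The 9680 of 19044 genes whose mean reached 5 CPM (99.3% of counts) entered edgeR's quasi-likelihood fit with additive terms for state and genotype, at an adjusted p of 0.05. The common biological coefficient of variation was 6.66%, and the prior weight was 11.8 degrees of freedom against 1. Whether this error includes the spread between mice is unknown, and the p-values speak for these libraries alone. Contrasts of 2 libraries have no test, only exact binomial intervals conditional on the summed count. A count of 0 allows up to 3 counts, 0.144 to 0.171 CPM. Members, lists and motifs were chosen with earlier results of these data known. All members are named, from other lists the called genes with the 4 largest changes per term (a few of these are not reported here), and by likeness the nearest gene per member and the 6 nearest to their median profile. Other genes named, Prdm1's order and the marker genes among them, were chosen after their values were seen. Alternatives covered scaling, the level minimum, DESeq2 1.42.0, the model terms, the prior count and the fold.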

Additional observations from a re-analysis of the deposited data

Results flagged for a closer look

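The genotype ratio of Satb1 had opposite signs in the states, higher in KO-labelled than in WT aTreg and lower in KO-labelled than in WT rTreg, with a difference of 0.40 log2 units between them (counting interval 0.34 to 0.46). The state ratio of Id3 also had opposite signs, lower in aTreg between the KO-labelled libraries and higher in aTreg between the WT libraries, with a difference of -0.33 log2 units (counting interval -0.54 to -0.12). The ratio of Id3 between the KO-labelled libraries, -0.05 [-0.23 to 0.12], does not exclude 0. With 1 library per group neither difference was tested.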

How the results depend on the processing

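Directions of the members did not reverse in any of the 310 member values recomputed under other settings. Of these, 280 kept their side of the threshold or their counting interval, 25 lost a call, 1 gained one (Lef1 for genotype) and 4 moved past their counting interval, all 4 with upper-quartile scaling. That scaling shifted the median genotype change of all genes to -0.04 log2 units. DESeq2 with the additive terms called 2527 genes for genotype (1370 higher, 1157 lower) and 423 for state (289 higher, 134 lower). Without a level minimum, 793 genes were lower in aTreg. Under DESeq2, Klf2 and Sox4 lost the genotype call (adjusted p for Klf2 and Sox4 within 0.00899 to 0.433 and 0.000476 to 0.767 over all settings), and Klf2, Klf3 and Foxo1 the state call. With genotype alone, edgeR called 1626 genes (929 higher, 697 lower) and 2 members lower, and DESeq2 without a level minimum called 2060 (1192 higher, 868 lower) and 3 members lower, Foxp1, Id3 and Tcf7. With state alone, where the difference between genotypes enters the error, edgeR called 0 genes higher and 0 lower and 0 members, against 328 genes and 3 members at an unadjusted p under 0.05. At 2-fold, KO-labelled against WT had 0 members lower in rTreg (130 genes lower, 330 higher) and 0 in aTreg (210 genes lower, 382 higher). At 2-fold, aTreg against rTreg had 1 member lower, Sox4, in the KO-labelled pair (13 genes lower, 92 higher) and 1, also Sox4, in the WT pair (70 genes lower, 181 higher). No paired analysis was possible because each group has 1 library, beyond the additive terms used throughout, which already compare genotypes within state and states within genotype. Depth limits Sox4 most, at 179 counts in its lowest library.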
